A study of Homo sapiens with 4 samples.

Results

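TFF1-high vehicle cells are the 424 BT474 cells, of 4240 in the DMSO library and 14867 in the whole series, with the most TFF1 transcript for their depth. They were chosen on the measured TFF1 values themselves: barcodes with at least 5000 UMIs (unique transcript counts), at least 500 detected genes and at most 50% mitochondrial UMIs were kept, ranked by TFF1 UMIs per 10000 UMIs, and the top 10% taken. They are compared here with the 2120 cells in the bottom 50% of the same ranking, called TFF1-low cells. A class cut from 1 gene is a range within 1 cell line and not a cell type, and the level of TFF1 in it is not a finding.

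TFF1 (ENSG00000160182) encodes trefoil factor 1, a small secreted peptide of mucous epithelia that was first described in breast cancer cells as an estrogen-induced transcript. The estrogen receptor, encoded by ESR1, is a ligand-activated transcription factor that binds estrogen response elements in enhancers and promoters, recruits coactivators, and raises transcripts such as TFF1, PGR and GREB1. Luminal breast cancer cells also carry a secretory programme, with mucins, trefoil peptides and small secreted proteins made through the endoplasmic reticulum, and divide under the control of cyclin D with CDK4 and CDK6.

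BT474 is an established human breast cancer line that expresses the estrogen receptor and carries amplified ERBB2 (HER2). All cells were grown in RPMI medium with 10% fetal bovine serum and treated for 4 h with the solvent DMSO, fulvestrant at 100 nM, neratinib at 200 nM, or the 2 drugs combined. Fulvestrant blocks the estrogen receptor and causes its degradation, and neratinib covalently inhibits the kinases of the HER2 family. Each group was 1 library of 1 line made with 10x Genomics 3′ chemistry, so no vehicle value has a replicate. The serum was not described as stripped of steroids.

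The 4 libraries held 89559704 to 110511222 UMIs over all barcodes and 3394 to 4240 cells. Median mitochondrial shares lay at 16.1% to 17.2% over the TFF1 classes of the DMSO and fulvestrant libraries and at 20.9% to 21.2% in both libraries with neratinib. Over all libraries 22 cell barcode sequences occurred more than once, and the DMSO library shared 5, 2 and 2 with the fulvestrant, neratinib and combination libraries. The line's identity genes were present: 10 of 10 were measured in the vehicle library, with 8259 summed CPM (counts per 1000000 UMIs, TFF1 left out of the total) in TFF1-high and 8494 in TFF1-low cells. Of 24 markers of fibroblasts, immune cells, endothelial cells and basal cells, 2 reached 5 CPM, COL1A1 (8.56 CPM in TFF1-high and 12.02 CPM in TFF1-low cells) and VIM (41.6 and 53.5 CPM), and 13 had no UMI in either class, among them COL1A2, COL3A1, PTPRC, CD3E, PECAM1, KRT5 and KRT14. Their summed level was 54.2 CPM in TFF1-high and 69.3 CPM in TFF1-low cells.

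TFF1 formed a continuous range with no gap at the limit. The vehicle cells had a median of 16.96 TFF1 UMIs per 10000, with 4.35 at the 10th and 40.3 at the 90th percentile and 150.1 at the top. The lowest TFF1-high cell had 40.36 and the highest cell left out had 40.34 per 10000. There were 97 TFF1-high cells and 121 others within 10% of that limit. The medians were 50.9 in TFF1-high and 9.10 in TFF1-low cells, and 45 vehicle cells, 1.06%, had no TFF1 UMI at a median depth of 16635 UMIs.

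**Figure D1:**
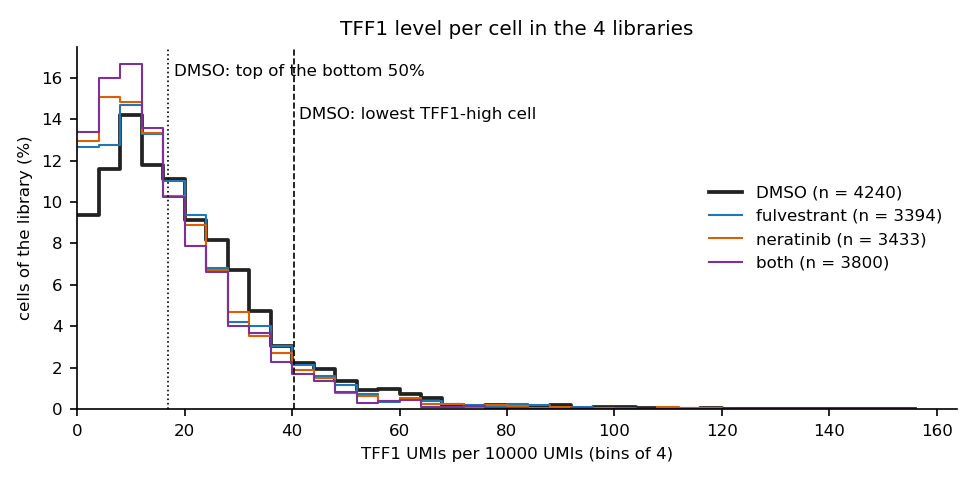
The share of cells of each library (y, in %) is drawn against TFF1 UMIs per 10000 UMIs (x, bins of 4) for the 4 libraries. The dashed line marks the lowest TFF1-high vehicle cell at 40.36 and the dotted line the top of the TFF1-low vehicle cells at 16.96, and the curves run through both lines without a gap.

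A reading of TFF1 that the choice did not use came from splitting the UMIs of each cell at random in 2. Of the 424 vehicle cells chosen on one part, 333 (78.5%) were also in the top 10% on the other part. On that unused part TFF1 stood at 5558 CPM in the chosen cells against 972 CPM in the bottom 50%, 5.72-fold, and the same reading gave 5.81-, 5.99- and 5.77-fold in the fulvestrant, neratinib and combination libraries. Applied to those libraries, the vehicle limit was reached by 7.98% [7.09, 8.95] of cells after fulvestrant, 6.79% [5.97, 7.68] after neratinib and 5.45% [4.75, 6.22] after both drugs, against 10% of vehicle cells (exact Clopper-Pearson 95% intervals, counting error only). TFF1 made up 2146 CPM of the UMIs in vehicle barcodes with at most 100 UMIs, a measure of free RNA, and 2137 CPM of those in vehicle cells. The part of free RNA in the TFF1 of single cells was not tested.

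TFF1-high cells were also somewhat deeper. Their median was 24232 UMIs and 4552 genes, against 21624 UMIs and 4389 genes in TFF1-low cells, and their median mitochondrial share was 16.9% against 16.1%. In the drug libraries the gap in depth was wider, with medians of 25115 to 25442 UMIs in the top 10% and 20822 to 21873 in the bottom 50%.

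Beyond TFF1, the vehicle TFF1-high cells had higher levels of single secreted proteins such as TFF3, TCN1 and KLK12 and of several known estrogen receptor targets, and lower levels of mitotic genes and of CYP1A1. Of 9208 genes with at least 5 CPM over all vehicle cells, 171 (1.86%) were at least 25% higher and 793 (8.61%) correspondingly lower, a log2 ratio past 0.32 in size with a 95% interval off 0. The intervals treat each pair of summed counts as Poisson, use the exact binomial of one count given their total, and cover counting error only, and since the cells were chosen in this library the ratios are descriptions with no test. The median gene stood at -0.08, so higher genes made up 17.7% of those counted; with the median gene set to 0 the counts were 325 higher and 390 lower, and that share was 45.5%.

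**Figure D2:**
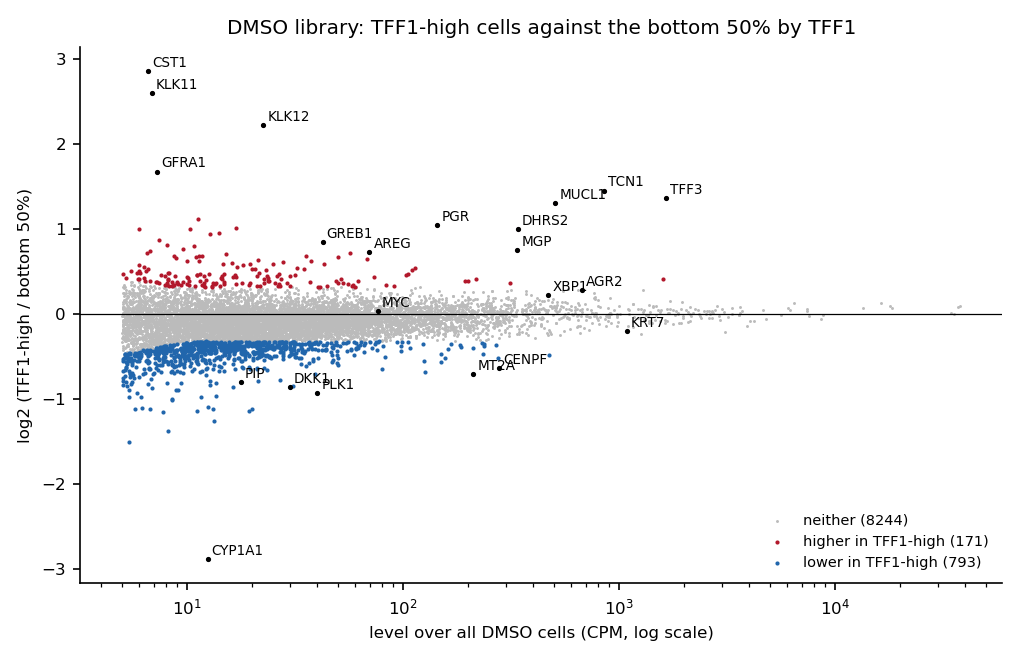
Each point is 1 of 9208 genes of the DMSO library, placed by its level over all vehicle cells (x, CPM on a log scale) and its log2 ratio of TFF1-high to TFF1-low cells (y). TFF3, TCN1 and MUCL1 stand out among abundant genes, KLK12, KLK11 and CST1 among scarcer ones, and CYP1A1 lies alone at the bottom at -2.88.

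Among the 12 highest ratios were genes of the secreted proteins KLK12, TFF3, TCN1, MUCL1 and MGP; of these only TFF3 is on the secretory and mucous list described further on. KLK12, a kallikrein-family secreted protease, had the greatest log2 ratio among genes of at least 20 CPM, 2.22 [2.05, 2.39], with 53.3 CPM in TFF1-high and 11.4 CPM in TFF1-low cells. It was detected in 45.5% of TFF1-high and 14.3% of TFF1-low cells, in 19.1% and 4.81% after thinning to 5000 UMIs, and at 17.4 CPM in free RNA. TFF3 (ENSG00000160180), the trefoil peptide gene that lies beside TFF1 on 21q22.3, was at 1.37 [1.35, 1.39], with 2968 and 1151 CPM, and per-cell medians of 2713 and 1082 CPM. TCN1, a secreted vitamin B12-binding protein, was at 1.45 [1.43, 1.48], with 1598 and 583 CPM, and MUCL1, a small breast mucin-like protein, was at 1.31 [1.27, 1.34], with 960.3 and 388 CPM. These genes differed in how their UMIs were spread over cells. TFF3 had a UMI in every TFF1-high cell and in 99.7% of TFF1-low cells, whereas TCN1 had no UMI in 32.3% of TFF1-high cells and reached 18556 CPM in 1 of them. After thinning to 5000 UMIs, TCN1 was detected in 54.0% of TFF1-high and 31.6% of TFF1-low cells. Free RNA held 1898 CPM of TFF3, 724 CPM of TCN1 and 888 CPM of MUCL1, so a UMI alone does not show that a cell expressed them.

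The comparison was repeated in the 3 drug libraries, whose TFF1-high cells are other cells. In each of them its own top 10% by its own TFF1 values was compared with its bottom 50%, TFF1 was left out of the test, and the 6 sums were tested with edgeR's quasi-likelihood test with the library as a block, with p-values adjusted by the Benjamini-Hochberg method over 13799 genes. The 3 libraries differ in treatment, so the spread between them holds treatment differences, and nothing in the labels gives replicate cultures. There 1603 genes (11.6%) rose and 797 (5.78%) fell in TFF1-high cells at an adjusted p under 0.05, and the counts were 1109 to 1690 and 482 to 831 with 1 library left out, lowest for falling genes without the neratinib library. Rose and fell here mean higher and lower in TFF1-high than in TFF1-low cells of these libraries, not a response to a drug. Unlike the vehicle counts, these calls need no minimum size, so vehicle and drug-library counts are not on one scale. Fitted differences use edgeR's TMM scaling and the ratios of single libraries use summed CPM. The median gene stood at -0.01 in the fit and at -0.06, -0.07 and -0.06 as the ratio with fulvestrant, neratinib and both drugs. Of the 171 genes higher in vehicle TFF1-high cells 121 rose (70.8%, and 7.96% of the 1521 rising genes with at least 5 CPM in vehicle), 0 fell (1 at an unadjusted p under 0.05 by edgeR) and 50 did neither. When drug-library cells were chosen on one part of their UMIs and read on the other, 101 of the 171 rose. Of the 793 lower genes 200 fell (25.2%, and 31.9% of 626), 15 rose and 578 did neither. Across 5149 genes of at least 20 CPM, which are not independent, the vehicle log2 ratios had a Pearson correlation of 0.71 with those of fulvestrant, 0.61 with neratinib and 0.58 with both drugs.

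All 12 of the leading higher genes rose in the drug libraries by edgeR, also when cells were ranked within bins of depth, mitochondrial share or scored phase. Of all genes tested 11.6% rose, and 1108 to 1626 genes rose in those rankings. For KLK12 the log2 ratios were 2.33, 1.97 and 2.29 with fulvestrant, neratinib and both drugs, and the fitted difference was 2.27 ± 0.07 (log2, SE; adjusted p = 2.0e-20). TFF3 stood at 1.26, 1.23 and 1.24 in the same order, the narrowest range of these 4 genes, with a fitted difference of 1.32 ± 0.02 (log2, SE; adjusted p = 1.9e-31). TCN1 stood at 1.37, 1.70 and 1.39, fitted at 1.57 ± 0.04 (log2, SE; adjusted p = 2.6e-24). MUCL1 stood at 1.42, 1.31 and 1.69, highest with both drugs, fitted at 1.55 ± 0.04 (log2, SE; adjusted p = 4.0e-24). These adjusted p-values are from edgeR.

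Among the other leading genes DHRS2, a mitochondrial short-chain dehydrogenase, was at 1.00 [0.96, 1.05] in vehicle cells (549 and 274 CPM) and 0.90, 1.00 and 1.07 in the drug libraries. MGP, matrix Gla protein, a secreted inhibitor of calcification, was at 0.75 [0.71, 0.80] (487 and 289 CPM) and 0.84, 1.14 and 0.98. PDLIM3, a PDZ and LIM domain protein of the actin cytoskeleton, was at 0.68 [0.55, 0.80] and 0.79, 0.80 and 0.66. MSX2, a homeobox transcription factor, was at 0.69 [0.54, 0.83] in vehicle cells but at 0.19, 0.66 and -0.05 in the drug libraries, with a fitted difference of 0.43 ± 0.09 (log2, SE; adjusted p = 6.1e-04) by edgeR that went to 0.15 and no longer passed without the neratinib library. Below 20 CPM, and chosen after the values were seen, the secreted cysteine protease inhibitor CST1 was at 2.86 [2.57, 3.15] with 261 UMIs in TFF1-high and 162 in TFF1-low cells, and the kallikrein KLK11 at 2.61 [2.30, 2.91] with 211 and 156 UMIs. Both rose in the drug libraries, by 2.62 ± 0.11 and 2.26 ± 0.13 (log2, SE), with edgeR adjusted p-values of 1.2e-17 and 2.3e-14.

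The secretory and mucous list held a larger share of higher members than genes in general, and some lower ones. Of its 26 genes measured in vehicle cells 6 were higher and 3 lower, against 1.86% and 8.61% of all genes. The list had a median log2 ratio of 0.03 against -0.08 over all genes. Its other higher members included MUC5B, a gel-forming mucin, at 0.68 [0.41, 0.94], and AGR3, an endoplasmic reticulum disulfide isomerase, at 0.62 [0.48, 0.77]. Against these stood PIP, prolactin-induced protein, at -0.80 [-1.05, -0.56] in vehicle cells, with 14.5 and 25.2 CPM. PIP was at -0.56, -0.20 and 1.14 in the drug libraries, with opposite signs. Its fitted difference of 0.23 ± 0.16 (log2, SE; adjusted p = 0.38) by edgeR did not pass, and was -0.32 without the combination library, 0.60 without fulvestrant and 0.37 without neratinib, where it did. AGR2, a more abundant isomerase, was at 0.28 [0.25, 0.32] (784 and 644 CPM), under the size counted. In the drug libraries 17 of 36 list members rose and 5 fell, against 11.6% and 5.78% of all genes tested. Their median difference was 0.20 against -0.01 over all genes tested.

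The machinery that folds and moves secreted proteins differed little in vehicle cells. Of 46 measured genes of the endoplasmic reticulum and secretory pathway 1 was higher and 0 were lower, against 1.86% and 8.61% of all genes. The higher one was KDELR3, a receptor that returns proteins to the endoplasmic reticulum, at 0.44 [0.22, 0.66], and the list median was 0.02. The chaperone HSP90B1 was at -0.20 [-0.29, -0.11] and the translocon subunit SSR4 at 0.18 [0.13, 0.23]. XBP1, a transcription factor of secretory cells and an estrogen receptor target, was at 0.22 [0.18, 0.26]. In TFF1-high cells of the drug libraries 11.6% of all genes tested rose and 5.78% fell by edgeR. Of the 46 machinery genes 24 rose and 0 fell (17 and 0 by DESeq2, and 0 falling at an unadjusted p under 0.05 by edgeR). Their median difference was 0.15 in the fit, their median CPM ratios were 0.07, 0.05 and 0.08 with fulvestrant, neratinib and both drugs, and SSR4 was fitted at 0.39 ± 0.03 (log2, SE; adjusted p = 9.6e-12).

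Estrogen receptor targets other than TFF1 were higher as a group. Of 52 listed genes 38 were measured in vehicle cells, 17 were higher and 1 lower, against 1.86% and 8.61% of all genes. The median log2 ratio of the targets was 0.27 against -0.08 over all genes. Their summed level was 6651 CPM in TFF1-high and 4166 CPM in TFF1-low cells, of which TFF3 made up 2968 and 1151 CPM. In the drug libraries 29 of 47 tested targets rose and 0 fell by edgeR, against 11.6% and 5.78% of all genes tested. The median difference of the targets was 0.36. At an unadjusted p under 0.05 by edgeR 2 fell, and DESeq2 called 23 rising and 0 falling. The count was 25 to 31 rising targets when 1 drug library was left out, when cells were ranked within bins of depth, mitochondrial share or scored phase, and with the 20% mitochondrial ceiling.

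PGR, the progesterone receptor, was at 1.04 [0.97, 1.12] in vehicle cells, with 216 and 105 CPM. Its per-cell medians were 157 and 65.0 CPM, with quartiles of 69.4 and 317.4 CPM in TFF1-high cells. Its drug-library ratios were 0.93, 0.83 and 0.67, all below the vehicle ratio and lowest with both drugs. The interval with fulvestrant, [0.83, 1.03], overlapped the vehicle one, and differences between libraries were not tested. The fitted difference of PGR was 0.89 ± 0.04 (log2, SE) with an edgeR adjusted p of 9.5e-17. GREB1, a receptor cofactor, was at 0.85 [0.71, 0.98] (55.9 and 31.1 CPM), and 0.41, 0.74 and 0.56 in the drug libraries. GFRA1, a co-receptor for GDNF, was at 1.68 [1.36, 1.99] with 148 and 208 UMIs in TFF1-high and TFF1-low cells, and at 1.63, 1.53 and 1.68. AREG, an EGFR ligand, was at 0.73 [0.62, 0.83] and CTSD, the lysosomal protease cathepsin D, at 0.72 [0.61, 0.83]. CTSD stayed within 0.55 to 0.62 in the drug libraries, whereas AREG ran from 0.30 with fulvestrant to 1.33 with both drugs. HSPB8, a small heat shock protein, was at 1.00 [0.64, 1.35] from 98 and 220 UMIs.

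MYC and CCND1, also textbook targets, were near level in vehicle cells. MYC, the growth-driving transcription factor, was at 0.03 [-0.08, 0.14] in vehicle cells, with 77.7 and 75.9 CPM, and its fitted difference in the drug libraries was -0.06 ± 0.07 (log2, SE; adjusted p = 0.63) by edgeR. CCND1, cyclin D1, was at -0.14 [-0.19, -0.08] in vehicle cells and at -0.39, 0.35 and -0.16 in the drug libraries, with the sign of the neratinib library opposite to the others, and a fitted difference of 0.22 without the fulvestrant and -0.25 without the neratinib library. ESR1 itself was at 0.25 [-0.01, 0.50] in vehicle cells from 163 and 618 UMIs, an interval that holds 0. In the drug libraries ESR1 stood at 0.76, 0.65 and 0.53, higher in TFF1-high cells. The fitted difference was 0.72 ± 0.08 (log2, SE) with an edgeR adjusted p of 5.4e-08. Whether that differs from the vehicle value was not tested. TFF2, the third trefoil gene of the locus, was scarce, with 31 and 66 UMIs and a ratio of 1.08 [0.41, 1.72] in vehicle cells, and it rose in the drug libraries, with a fitted difference of 1.53 ± 0.25 (log2, SE; adjusted p = 2.4e-05) by edgeR.

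The neighbourhood of TFF1 on 21q22.3 was not higher as a block in vehicle cells. Of 15 measured genes near it 2 were higher, TFF3 and the serine protease TMPRSS3 at 0.76 [0.47, 1.05], and 0 were lower. Over all genes 1.86% were higher and 8.61% lower. The median of the 15 was -0.01. The protease inhibitor CSTB was at 0.12 [0.05, 0.18] and the pyridoxal kinase PDXK at 0.15 [0.03, 0.26]. By edgeR 6 of 20 rose and 0 fell in the drug libraries, against 11.6% and 5.78% of all genes tested. At an unadjusted p under 0.05 by edgeR also 0 fell, and the median difference was 0.10.

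Promoter sequence is shown for 4 leading genes, since their transcripts were high in the same cells and the receptor's response element is known. The windows run from 250 bases before to 50 after the annotated start (RefSeq, GRCh38.p14), written 5′ to 3′ in the direction of the gene. Capitals mark the 5-letter half-site of the estrogen response element, GGTCA or its reverse complement TGACC.
CTSD (chr11:1763878-1764177, minus strand): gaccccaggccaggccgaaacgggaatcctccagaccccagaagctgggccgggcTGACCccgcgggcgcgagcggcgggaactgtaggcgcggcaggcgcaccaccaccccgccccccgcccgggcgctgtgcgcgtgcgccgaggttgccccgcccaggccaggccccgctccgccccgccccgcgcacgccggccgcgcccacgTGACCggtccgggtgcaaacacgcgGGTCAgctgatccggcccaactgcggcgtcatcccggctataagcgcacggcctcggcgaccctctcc
TCN1 (chr11:59866438-59866737, minus strand): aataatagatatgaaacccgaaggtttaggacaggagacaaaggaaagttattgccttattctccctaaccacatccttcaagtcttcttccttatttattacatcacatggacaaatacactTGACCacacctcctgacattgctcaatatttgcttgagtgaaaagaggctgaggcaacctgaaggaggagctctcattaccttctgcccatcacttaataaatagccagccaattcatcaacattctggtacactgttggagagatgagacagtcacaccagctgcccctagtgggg
PGR (chr11:101129028-101129327, minus strand): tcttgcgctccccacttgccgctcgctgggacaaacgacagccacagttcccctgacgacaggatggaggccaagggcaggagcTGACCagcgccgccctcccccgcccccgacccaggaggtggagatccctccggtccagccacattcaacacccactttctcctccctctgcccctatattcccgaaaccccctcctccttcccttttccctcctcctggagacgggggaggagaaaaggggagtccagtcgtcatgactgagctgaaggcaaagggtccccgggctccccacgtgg
KLK12 (chr19:51034953-51035252, minus strand): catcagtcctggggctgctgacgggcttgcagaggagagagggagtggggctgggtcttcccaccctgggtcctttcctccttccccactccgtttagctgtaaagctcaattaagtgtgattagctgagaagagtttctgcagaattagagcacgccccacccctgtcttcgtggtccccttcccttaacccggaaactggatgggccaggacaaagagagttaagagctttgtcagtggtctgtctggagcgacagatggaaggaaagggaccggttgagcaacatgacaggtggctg
CTSD holds 3 half-sites, first bases 195, 43 and 18 before the start, and TCN1 holds 1 at 127. This PGR window holds 1 at 166, and KLK12 holds none. The windows of AREG, PDLIM3, MSX2, MUCL1 and DHRS2, not shown, hold none, nor does a further PGR window. The genes shown thus hold half-sites more often than the leading genes with windows do. The full palindrome GGTCANNNTGACC occurred in 20 of 35116 promoter windows (0.0570%) and in 0 of the 11 windows matched to 9 of the 12 leading genes. A half-site occurred in 37.4% of all windows, in 4 of those 11 (36.4%; both overlapping PGR windows hold the same site) and in 3 of 15 windows (20%) of the 12 lowest genes. Windows for TFF1, TFF3, GREB1 and MGP were not used here. These matches describe letters in short windows, not binding.

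Luminal identity genes were called about as often as genes in general in vehicle cells. Of 29 measured luminal transcription factors and receptor cofactors 1 was higher and 3 lower, against 1.86% higher and 8.61% lower over all genes, with a median log2 ratio of -0.20 against -0.08. The lower ones numbered 1 when cells were ranked within bins of depth or within scored phase, and 0 with the top 20%, against all other cells or under median-of-ratios scaling. GATA3, the luminal master regulator, was at -0.23 [-0.30, -0.16] (201 and 235 CPM) and FOXA1, which opens chromatin for the receptor, at -0.15 [-0.22, -0.07]. TBX3 was at -0.36 [-0.44, -0.28] and the epithelial factors GRHL1 and GRHL2 at -0.33 [-0.56, -0.11] and -0.36 [-0.60, -0.13]. ELF5, a factor of the alveolar secretory lineage, was the higher one at 0.59 [0.37, 0.81], but at 0.54, -0.05 and -0.06 in the drug libraries, where it was fitted at 0.22 ± 0.09 (log2, SE; adjusted p = 0.1) by edgeR and passed without the neratinib (0.31) or the combination library (0.32). In those libraries 2 of 30 list members rose and 8 fell, against 11.6% and 5.78% of all genes tested, and without the combination library 3 rose and 4 fell. TBX3 fell by 0.14 ± 0.04 (log2, SE) with an edgeR adjusted p of 0.0038, and no longer passed without the combination library (-0.14). FOXA1 and GATA3 did not pass there, with 0.03 ± 0.03 (log2, SE; adjusted p = 0.61) and -0.05 ± 0.03 (log2, SE; adjusted p = 0.4).

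Luminal surface and keratin genes showed 2 of 17 higher, among them the mucin MUC1 at 0.53 [0.39, 0.68], 0 lower and a median of -0.04, against 1.86% higher and 8.61% lower over all genes. KRT7, an abundant simple-epithelial keratin, was at -0.20 [-0.23, -0.17], with 1001 and 1149 CPM. ERBB2 was at -0.13 [-0.17, -0.10] in vehicle cells (929 and 1020 CPM) and at -0.19, -0.34 and -0.20 in the drug libraries. There ERBB2 fell by 0.16 ± 0.02 and KRT7 by 0.19 ± 0.02 (log2, SE), with edgeR adjusted p-values of 2.3e-06 and 6.3e-08. Of 18 tested list members 6 rose and 4 fell, against 11.6% and 5.78% of all genes tested, with a median difference of 0.01.

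Mitotic genes were lower in vehicle TFF1-high cells and some replication genes higher, and both counts depended on how cells were ranked or cut. Of 54 G2M genes 35 were lower and 0 higher, with a median log2 ratio of -0.37. Of 42 S phase genes 7 were higher and 0 lower, with a median of 0.18. Over all genes 8.61% were lower and 1.86% higher. PLK1, the mitotic kinase, had the lowest ratio among genes of at least 20 CPM, -0.93 [-1.12, -0.73], with 22.4 and 42.6 CPM. CENPF, a kinetochore protein, was at -0.63 [-0.70, -0.56] (186 and 289 CPM), the mitotic cyclin CCNB2 at -0.65 [-0.78, -0.52], the checkpoint kinase BUB1 at -0.65 [-0.90, -0.42] and MKI67, the proliferation marker, at -0.40 [-0.54, -0.26]. Among S phase genes DTL, a replication-coupled ubiquitin ligase subunit, was at 0.63 [0.36, 0.89], CDC45 at 0.45 [0.27, 0.63] and the nuclease EXO1 at 0.47 [0.19, 0.74]. Scored as G2M were 20.05% [16.3, 24.2] of TFF1-high and 28.7% [26.8, 30.7] of TFF1-low cells, and as S 23.3% [19.4, 27.7] and 16.1% [14.6, 17.8]. With every cell thinned to 5000 UMIs the G2M shares were 23.3% and 30.5% and the S shares 22.6% and 15.0%. When cells were ranked within scored phase, 2 of 54 G2M genes and 2 of 42 S phase genes were lower and 0 of either list higher. Phases were scored from these same lists, so this ranking evens them out beforehand and is no separate check. Within bins of mitochondrial share 12 G2M genes were lower, and with the top 20% in place of the top 10% 3 were. Of the S phase genes 1 was higher and 1 lower within 10 bins of total UMIs, where the median was 0.03, and 2 were higher against all other cells.

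The G2M list stood differently in the drug libraries. There the list medians were -0.07 (fulvestrant), 0.07 (neratinib) and 0.18 (both drugs). By edgeR 20 of 54 genes rose and 0 fell (10 and 0 by DESeq2, and 0 falling at an unadjusted p under 0.05 by edgeR). Of all genes tested 11.6% rose and 5.78% fell. Cells scored G2M made up 24.5%, 29.2% and 33.2% of the top 10% and 26.4%, 25.6% and 24.5% of the bottom 50% in the same order. These counts moved with depth: when cells were ranked for TFF1 within 10 bins of total UMIs, 1 of 54 rose and 41 fell, with a median difference of -0.26, and in vehicle cells 36 were lower. With 1 library left out the rising G2M genes numbered 33 without fulvestrant, 15 without neratinib and 10 without the combination. MKI67 was fitted at 0.19 ± 0.05 (log2, SE; adjusted p = 0.0049) by edgeR, at 0.14 and no longer past the threshold without the combination library, and at -0.22 when ranked within those bins. Of 43 S phase genes 38 rose and 0 fell by edgeR (29 and 0 by DESeq2, and 0 falling at an unadjusted p under 0.05 by edgeR). Their median difference was 0.41. When cells were ranked within bins of depth 17 rose, and 11 within scored phase, which was itself scored from these genes. Rising estrogen receptor targets numbered 28 in each of these rankings.

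**Figure D3:**
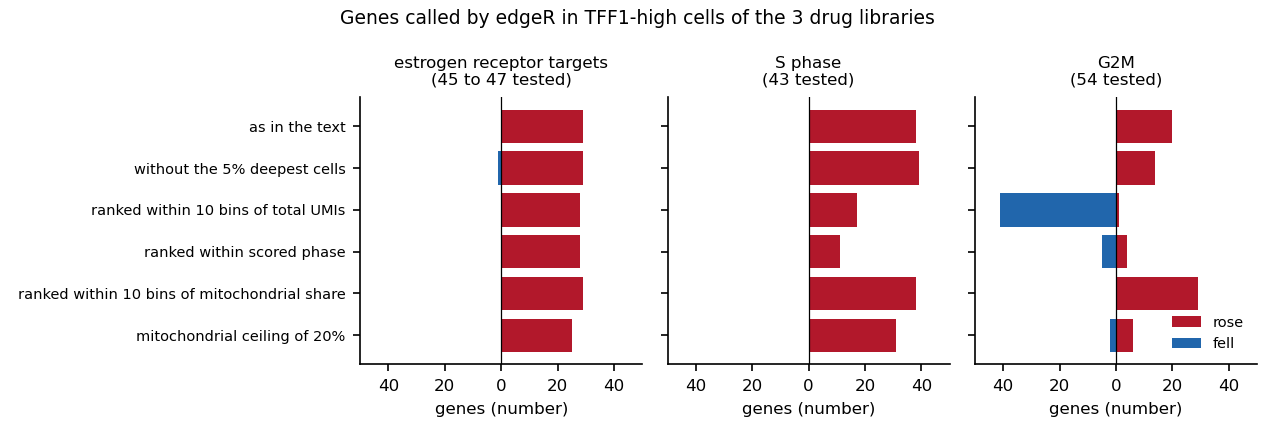
Bars give the number of genes of 3 lists that rose (right, red) or fell (left, blue) by edgeR in TFF1-high cells of the 3 drug libraries, for the ranking used in the text and 5 alternatives. The bars for estrogen receptor targets stay between 25 and 29 rising genes, whereas the G2M bar turns from 20 rising to 41 falling when cells are ranked within bins of total UMIs.

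CYP1A1, a cytochrome P450 induced by the aryl hydrocarbon receptor, was far lower than any other named gene. It had 28 UMIs in TFF1-high cells and 929 in TFF1-low cells, a log2 ratio of -2.88 [-3.48, -2.34], or 2.61 against 19.2 CPM. It was detected in 14 of 424 TFF1-high cells (3.30%) and 286 of 2120 TFF1-low cells (13.5%), in 1.18% and 5.71% after thinning to 5000 UMIs, and at 14.7 CPM in free RNA. In the drug libraries CYP1A1 stood at -1.61, -1.99 and -1.54. It was lower in their TFF1-high cells by 1.61 ± 0.10 (log2, SE), with an edgeR adjusted p of 2.5e-13. CYP1B1, another target of that receptor chosen after its values were seen, was at -1.12 [-1.40, -0.85] in vehicle cells from 124 and 1213 UMIs, and fell by 0.43 ± 0.08 in the drug libraries, with an edgeR adjusted p of 1.4e-04.

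FOXO targets and immediate early genes held more lower than higher members. Of 23 measured FOXO targets 8 were lower and none higher, against 8.61% and 1.86% of all genes, the median was -0.28 against -0.08, and they were led by YPEL2 at -0.84 [-1.04, -0.65] and the ubiquitin ligase FBXO32 at -0.64 [-0.91, -0.38]. In TFF1-high cells of the drug libraries 9 of 28 fell and 1 rose, against 5.78% and 11.6% of all genes tested. YPEL2 stood at -0.70, -0.62 and -0.51. The 22 measured genes of ERK output and the immediate early response had a median of -0.16, and 6 of them were lower and 1 higher, including ATF3 at -0.86 [-1.30, -0.45], FOSB at -0.43 [-0.73, -0.14] and FOS at -0.42 [-0.59, -0.26]. In the drug libraries 6 of 28 fell, a larger share than over all genes tested, and 4 rose, a share near it, with a median difference of -0.07 against -0.01. The vehicle ratio of ATF3 rested on 53 and 434 UMIs. ATF3 was detected in 10.8% of TFF1-high and 11.8% of TFF1-low vehicle cells, with single-cell maxima of 203 and 1494 CPM. CCNG2, a cyclin of resting cells, was at -0.44 [-0.54, -0.33] and RBL2, the p130 pocket protein, at -0.48 [-0.73, -0.24], while RB1 was at 0.45 [0.21, 0.69].

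Against 5.78% of all genes tested, 7 of the 12 lowest genes fell in the drug libraries by edgeR. These were the retinoic acid-binding protein CRABP2 (-0.71 [-0.88, -0.54] in vehicle cells), the metallothionein MT2A (-0.70 [-0.78, -0.62]), the desaturase DEGS1 (-0.78 [-0.99, -0.57]), the Golgi proteins GOLIM4 (-0.79 [-1.05, -0.54]) and B4GALT1 (-0.65 [-0.89, -0.41]), AMOTL2 (-0.64 [-0.88, -0.40]) and YPEL2. Without the fulvestrant library MT2A (-0.04) and DEGS1 (-0.28) no longer passed. The others were PLK1, BUB1, CCNB2, PRR11 and DKK1, and all 12 fell when cells were ranked within bins of total UMIs. In that ranking 634 of 13815 genes tested fell. DKK1, a secreted WNT antagonist, was at -0.86 [-1.07, -0.66] in vehicle cells, yet 20.8% of both TFF1-high and TFF1-low cells had a UMI (7.08% and 8.30% after thinning). Its level in TFF1-low cells included 1 cell at 7018 CPM, against a maximum of 414 CPM in TFF1-high cells, and its fitted difference in the drug libraries was -0.11 ± 0.06 (log2, SE; adjusted p = 0.24), or -0.27 without the combination library, where it passed.

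Most remaining lists held few genes past the size counted in vehicle cells, where 1.86% of all genes were higher and 8.61% lower. Glycolysis and hypoxia genes had a median of 0.14 with 0 of 21 past the size counted, LDHA at 0.27 [0.23, 0.31] and PGK1 at 0.24 [0.19, 0.29]. In the drug libraries 15 of 26 of them rose and 1 fell, against 11.6% and 5.78% of all genes tested, by calls without a minimum size. Their median there was 0.26 against -0.01 over all genes tested, and in vehicle cells 0.14 against -0.08. Sterol and lipid synthesis had 0 of 25 counted and a median of -0.02, MYC and ribosome biogenesis 2 of 30 lower and a median of -0.10, and apoptosis and p53 targets 1 of 21 lower and a median of -0.09. Stress genes of the ATF4 list had 2 of 19 lower (CYP1A1 among them) with a median of -0.06. In the drug libraries 9 of 23 of them rose and 3 fell, against 11.6% and 5.78% of all genes tested. Interferon and antigen genes had 2 of 9 lower, a larger share than over all genes, ISG15 at -0.97 [-1.50, -0.48] and HLA-E at -0.52 [-0.76, -0.28]. ISG15 had a UMI in 7.31% of TFF1-high and 7.36% of TFF1-low cells, with single-cell maxima of 149 and 4735 CPM. It rested on 37 and 326 UMIs, and stood at 0.15, 0.01 and 0.20 with fulvestrant, neratinib and both drugs. Of 13 measured genes of the cyclin D and RB list 1 was higher and 4 lower, larger shares than over all genes. The 82 ribosomal protein genes and 13 mitochondrial transcripts measured had medians of 0.00 and 0.08 and 0 genes counted.

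**Figure D4:**
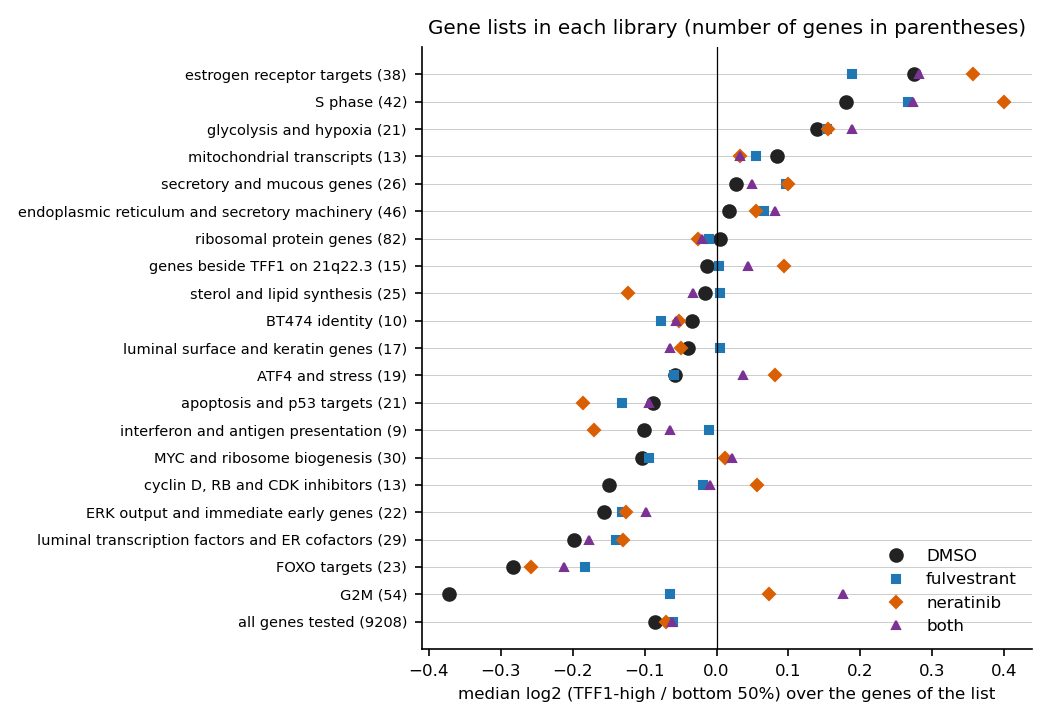
For each gene list (rows, number of genes measured in parentheses) the median log2 ratio of TFF1-high to TFF1-low cells (x) is drawn for the 4 libraries. Estrogen receptor targets lie at 0.19 to 0.36 and FOXO targets at -0.28 to -0.18 in all 4, while the G2M list runs from -0.37 with DMSO to 0.18 with both drugs.

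Some leading genes went up with TFF1 at most steps of its range in the vehicle library, and others less evenly. The leading genes were chosen for high ratios in this same ranking, so their rise from the lowest to the highest group is a description. Across 10 groups of 424 cells ordered by TFF1, TFF3 went up at 9 of 9 steps, from 738 to 2968 CPM. TCN1 went from 358 to 1598 CPM, MUCL1 from 263 to 960 CPM and PGR from 56.1 to 216 CPM, each up at 8 of 9 steps. KLK12 went from 4.15 to 53.3 CPM, GREB1 from 19.5 to 55.9 CPM, CTSD from 47.8 to 81.7 CPM and AREG from 54.1 to 98.1 CPM, each up at 6 of 9 steps, as many as the mitotic genes CENPF and MKI67, which were lower in the last group than in the first. CYP1A1 went from 47.1 down to 2.61 CPM. ERBB2 went from 1122 to 929 CPM and GATA3 from 249 to 201 CPM. DKK1 was at 87.9 CPM in the lowest group alone, at 33.0 CPM in the next and 20.5 CPM in the highest. The share scored G2M did not follow TFF1: it was 21.5% in the lowest group, 27.1% to 34.0% in the 8 groups between and 20.05% in the TFF1-high cells, directly after its highest value. The share scored S was 12.5% in the lowest and 23.3% in the highest group, with median depths of 19332 and 24232 UMIs.

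**Figure D5:**
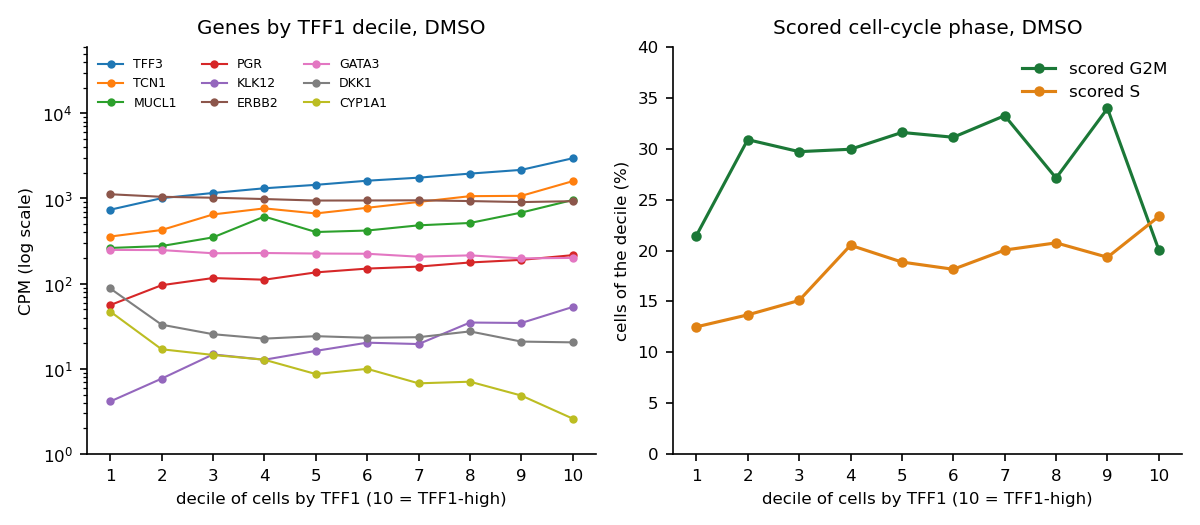
Vehicle cells are split into 10 equal groups by TFF1 (x, group 10 being the TFF1-high cells). Left, CPM of 9 genes on a log scale, with TFF3, TCN1, MUCL1, PGR and KLK12 higher in group 10 than in group 1 and CYP1A1 lower, at 2.61 against 47.1; right, the share of cells (in %) scored G2M and S, with G2M at 34.0% in group 9 and 20.05% in group 10.

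Among TFF1-high cells, TFF3 was high more often than the other leading genes examined. TFF3 was also the most abundant of them, at 1647 CPM over all vehicle cells against 144 CPM for PGR. The part of abundance in the shares and correlations was not tested. Of the 424 cells 205 (48.3%) were also in the top 10% of vehicle cells by TFF3, against 1.32% of TFF1-low cells, and 403 lay above the vehicle median of TFF3. For DHRS2 that share of the top 10% was 28.5%, for MUCL1 19.6%, for TCN1 19.3%, for PGR 18.9%, for MGP 17.9% and for ERBB2 7.55%. There were 187 TFF1-high cells (44.1%) above the vehicle medians of TFF3, TCN1 and MUCL1 together, against 5.28% of TFF1-low cells, and 5 (1.18%) above none of the 3, against 28.5%. These genes were among the highest ratios between the same cells, so the shares describe that choice and are no separate support. Over all 4240 vehicle cells, which share 1 library, the Spearman correlation of TFF1 was 0.68 with TFF3, 0.31 with DHRS2, 0.29 with PGR, 0.28 with MUCL1, 0.22 with TCN1 and -0.12 with ERBB2. With cells thinned to 5000 UMIs it was 0.55 with TFF3 and 0.17 with PGR. Within the 424 cells alone it was 0.29 with TFF3 and 0.01 with PGR.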

How the data were processed

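The values were counts: the deposited matrix lists UMI counts, as integers, for 33538 genes in all barcodes of 4 libraries, made by the authors with Cell Ranger 3.1.0 against hg19, per the submitters' processing notes. The features name genes without coordinates. Library numbers in the barcodes were matched to the numbers that open the sample titles. Cells were kept as the report states, with 61 vehicle barcodes removed by the mitochondrial ceiling. Doublets were not called; an alternative dropped the deepest 5% of cells.

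UMIs were summed per library and class, TFF1 left out of totals, with median depths of 20822 to 25442 UMIs per cell. With 1 library per group, vehicle ratios carry counting error only. Drug libraries were fitted with edgeR 4.0.16 (TMM scaling, low counts filtered by filterByExpr, R 4.3.3), and with DESeq2 1.42.0 as an alternative. SE values were derived from edgeR's quasi-likelihood F. Phases were scored from the S phase and G2M lists with scanpy 1.11.5. The ratio and the edgeR fit were tested on simulated data with known changes.

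Named were 15 genes always, the 12 highest and 12 lowest ratios among genes of at least 20 CPM (no mitochondrial or ribosomal protein genes), and up to 4 members per list with the greatest ratios. The values of 1 gene under this rule are not reported here. Exceptions are marked as chosen after their values were seen. The cells, the 22 lists and the tests were chosen with earlier results of these data known. Alternatives covered 16 settings in vehicle cells and 20 in the drug libraries.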

Additional observations from a re-analysis of the deposited data

Results flagged for a closer look

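For 2 gene lists the median ratio of TFF1-high to TFF1-low cells lay above that of all genes in both libraries with neratinib. In both libraries without neratinib it lay below, in some cases by little. This difference between libraries was not tested, since each treatment was 1 library.

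The G2M list had a median log2 ratio of -0.371 in vehicle cells and -0.07 with fulvestrant, against 0.07 with neratinib and 0.18 with both drugs. The medians of all genes were -0.08, -0.06, -0.07 and -0.06 in the same order. With fulvestrant the G2M list was thus nearly level with all genes, at -0.065 against -0.060. Depth moved with this result: the top 10% by TFF1 had a median of 24232 UMIs against 21624 in vehicle cells, 25442 against 21873 with fulvestrant, 25410 against 21115 with neratinib and 25115 against 20822 with both drugs. Ranked within bins of total UMIs, 41 of 54 G2M genes fell in the drug libraries by edgeR, as given above. The part of depth in the difference between libraries was not tested.

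The MYC and ribosome biogenesis list had a median log2 ratio of -0.103 in vehicle cells and -0.09 with fulvestrant. It was 0.01 with neratinib and 0.02 with both drugs. In vehicle cells the median of all genes was -0.085, close to that of the list. Of 30 genes of this list 7 rose and 2 fell in the drug libraries by edgeR, against 11.6% and 5.78% of all genes tested.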

How the results depend on the processing

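Of 116 recomputed summary values 99 stayed within 1.5 times the reported count or within its counting interval. In vehicle cells the higher genes numbered 325 under median-of-ratios scaling, 68 with at least 20 CPM and 351 with no filter on low counts, and the lower genes 390, 259 with at least 20 CPM and 445 with the top 20%, against 171 and 793. The share of cells scored G2M was 27.0% with the top 20%. In the drug libraries, against 1603 higher and 797 lower, the counts were 1046 and 490 with the 20% mitochondrial ceiling and 839 and 169 with DESeq2. The lower genes numbered 508 when cells were chosen on part of their UMIs, 496 against all other cells, and 482 to 831 with 1 library left out. The replicate block is the library: without it, edgeR called 5 higher and 1 lower gene. Reversed in the drug libraries were PIP (-0.82 with the 20% ceiling, -0.43 ranked on thinned TFF1, -0.29 within bins of total UMIs, -0.36 within bins of mitochondrial share, -0.32 to 0.60 with 1 library left out), MKI67 (-0.22) and CCNB2 (-0.31) within bins of total UMIs, and, with 1 library left out, CCND1 (-0.25 to 0.22) and PRR11 (-0.16 to 0.12). The cause was not tested. Depth limits genes under 20 CPM, where some ratios rest on under 100 UMIs in TFF1-high cells, and a single vehicle library leaves variation between cultures unmeasured.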
